A study of Drosophila melanogaster with 9 samples.

Results

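The imaginal disc growth factor (Idgf) family of Drosophila melanogaster has 6 genes, Idgf1 to Idgf6, and all 6 are described here out of 17558 genes in each count table. Those tables name Idgf1 to Idgf5 as such. Idgf6 is listed under the name CG5210 and was found by its identifier, FBgn0013763. RNA was sequenced from the eyes of pupae aged 40 to 41 hours from puparium formation and kept at 25 °C, in 3 groups of 3 libraries. Each library was labelled as a pool of 60 eyes, and all groups carried pGMR-GAL4, a driver active in the differentiating cells of the eye. Control eyes (mCherry) had the genotype UAS-mCherry (BDSC #35787)/pGMR-GAL4. Bon eyes were UAS-bon-mCherry/+; pGMR-GAL4/+ and overexpressed Bonus (Bon), a transcriptional cofactor of the TIF1 family. Bon+yki-RNAi eyes combined UAS-bon-mCherry/+ with pGMR-GAL4 over UAS-yki-RNAi (BDSC #34067), so that yorkie (yki), the coactivator restrained by the Hippo pathway, was knocked down on top of Bon. There was no group with yki knockdown alone, each group is a single stock combination, and cells of the dissected eye in which the driver is silent would not make the transgene products.

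Idgf proteins are secreted and were first recognised in medium conditioned by imaginal disc cells, where they promoted cell growth together with insulin. By fold they belong to glycosyl hydrolase family 18 (GH18), the family of the insect chitinases, but they lack a residue needed to cut chitin. In flies they are also known for roles in organising the chitinous cuticle and in wound healing, and the fat body and blood cells are known sources of several of them.

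The mCherry libraries held between 34926438 and 48524961 counts, the Bon libraries between 38754394 and 48485542, and those of Bon+yki-RNAi between 37137136 and 39690537. Levels are given as CPM, the count scaled to a common library total after TMM adjustment, and genes are ranked by level only per kilobase of exon, while sums over marker genes are sums of CPM. The gene bon stood at 174 ± 2.94, 4983 ± 258 and 4166 ± 48.1 CPM in mCherry, Bon and Bon+yki-RNAi (SD, n = 3), and yki at 61.1 ± 1.46, 62.6 ± 0.316 and 29.2 ± 0.250 CPM, so both went with the labels. Between Bon+yki-RNAi and Bon, bon itself was called lower (log2 fold change -0.26 ± 0.03, edgeR quasi-likelihood adjusted p = 6.14e-05). The 14 eye markers all had counts in each group, though Crys was at 0.0674 ± 0.0566 CPM in Bon, about the level of 3 counts. Their summed level was lower with Bon, at 3864 to 3994 CPM in the mCherry libraries, 2276 to 2395 CPM in those of Bon and 2395 to 2426 CPM in those of Bon+yki-RNAi.

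The 6 genes lie at 4 places of the genome (build BDGP6 as in the deposited tables). Idgf1 (FBgn0020416, 2L, 16445278 to 16446793), Idgf2 (FBgn0020415, 2L, 16447330 to 16450508) and Idgf3 (FBgn0020414, 2L, 16450907 to 16455194) stand in a row on the plus strand, with 536 nt between the first pair and 398 nt between the second. Idgf4 (FBgn0026415, 9927973 to 9930948, minus strand) is on the X chromosome. Idgf5 (FBgn0064237, 18393666 to 18395282) and Idgf6 (16691022 to 16693751) are both on the plus strand of 2R but far apart. The Ensembl annotation of the same build gives the same spans and proteins of 439 (Idgf1), 441 (Idgf3), 442 (Idgf4), 444 (Idgf5) and 452 (Idgf6) residues, and of 368 and 440 residues for Idgf2. Exonic lengths were 1445, 1796, 3954, 1834, 1495 and 1811 nt from Idgf1 to Idgf6. The Idgf3 value is the longest, and the last exon of its 4 annotated transcripts is 849 to 3001 nt long. Its level per kilobase is therefore too low if the shorter transcripts prevail, which these gene counts cannot show.

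Of the 6 members, 4 passed the filter on low counts, with at least 285 counts in every library of all groups. The other two, Idgf1 and Idgf5, did not. In control eyes the family was mostly Idgf4. It stood at 87.7, 91.95 and 90.1 CPM in the 3 mCherry libraries. Per kilobase this was 49.0 ± 1.17 CPM, above 85.8% of the 11068 tested genes. Idgf6 had 11.3, 12.9 and 10.9 CPM, Idgf2 had 8.13, 8.87 and 8.44 CPM, and Idgf3 had 9.34, 9.06 and 8.998 CPM. Per kilobase the order was Idgf4, then Idgf6 (6.45 ± 0.586), Idgf2 (4.72 ± 0.205) and Idgf3 (2.31 ± 0.0462), and no library of a gene reached the range of its neighbour in that order. As a share of the summed level per kilobase, Idgf4 made up 78.4% ± 0.691 of the family and Idgf6 10.3% ± 0.678.

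**Figure D1:**
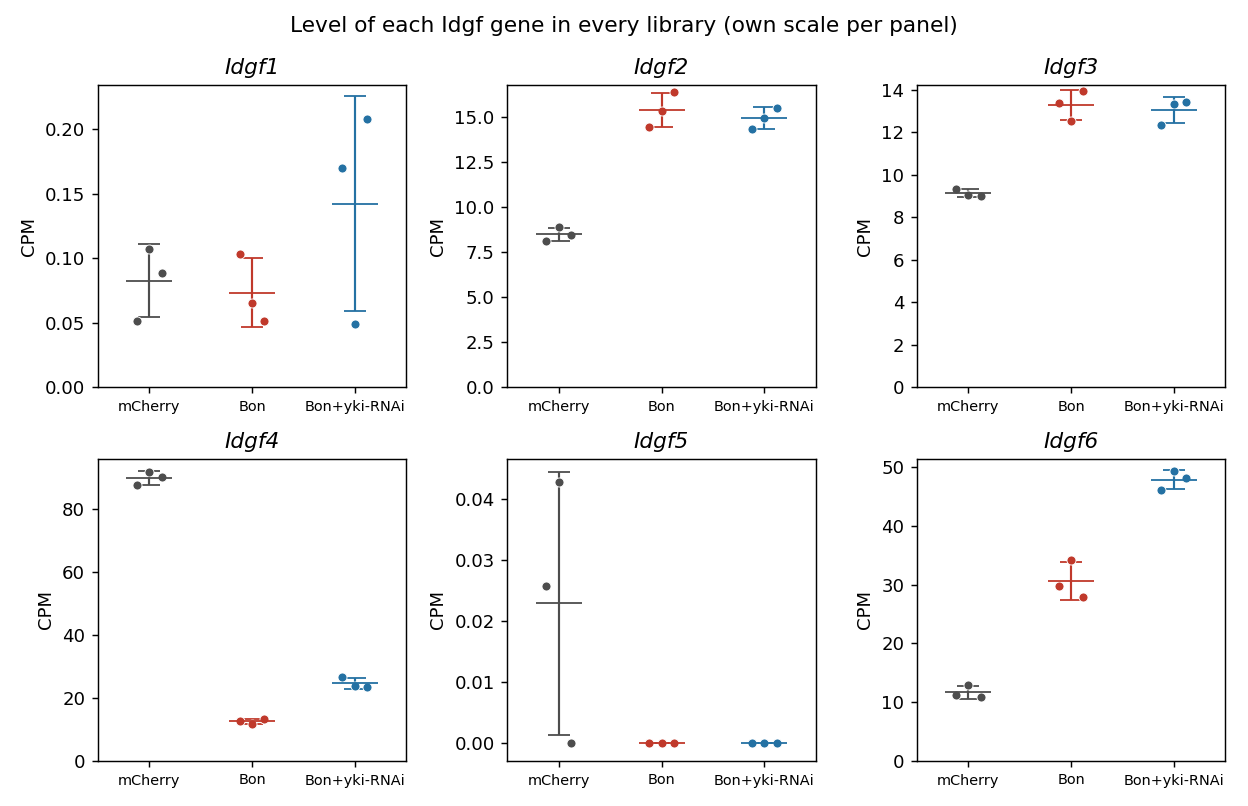
CPM of each Idgf gene in every library (points), with the mean (wide bar) and SD over 3 libraries per group, each panel with its own axis, which starts at 0 or, for Idgf5, just below it. Idgf4 was high in mCherry only, Idgf6 was higher in each successive group, Idgf2 and Idgf3 were higher in both Bon groups, and Idgf1 and Idgf5 stayed near 0.

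Overexpression of Bon lowered Idgf4 and raised Idgf2, Idgf3 and Idgf6. Idgf4 went from 89.9 ± 2.15 CPM in mCherry to 12.6 ± 0.733 CPM in Bon (SD, n = 3 each), a 7.17-fold fall. Idgf6 went from 11.7 ± 1.06 to 30.6 ± 3.20 CPM, a 2.61-fold rise, while Idgf2 rose 1.81-fold and Idgf3 1.45-fold. In these bulk samples fewer cells that express a gene and less RNA per cell cannot be told apart. Of the 14 eye markers 11 also fell with Bon and 2 rose (median log2 fold change -1.03), and their part in the change of Idgf4 was not tested. The 11 include Crys, which passed the low-count filter only through mCherry, so its fall is not independent of that filter.

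The 3 Bon libraries had 12.7, 11.8 and 13.2 CPM of Idgf4. All lay far below the control libraries. The log2 fold change was -2.84 ± 0.05 (SE; edgeR quasi-likelihood adjusted p = 8.41e-15), the 130th lowest of 11068 genes. Idgf6 had 29.9, 34.2 and 27.9 CPM in Bon libraries, each more than double any control library. Its log2 fold change was 1.38 ± 0.08 (adjusted p = 3.72e-08), the 317th highest. The middle gene of the 2L cluster, Idgf2, had 14.4, 15.3 and 16.4 CPM in Bon, all above the control range, with 0.85 ± 0.06 (adjusted p = 2.73e-08). Its neighbour Idgf3 had 13.4, 12.5 and 13.9 CPM, also clear of the controls, with 0.54 ± 0.06 (adjusted p = 2.38e-06). Thus 3 tested members were called higher and 1 lower, where 25.2% of all tested genes were called higher, 27.2% lower and 52.4% in either direction. The libraries of the groups did not overlap for any of these 4, and neither did they for 58.6% of all tested genes. The number of members called is therefore no result about the family. By size, 5.57% of tested genes were called with a log2 fold change of -1 or less, as Idgf4 was, and 4.21% with 1 or more, as Idgf6 was. With upper-quartile scaling the calls over all genes shifted to 3894 higher and 2323 lower, from 2786 and 3009, and the 4 members kept their calls and directions.

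Knockdown of yki in Bon eyes raised Idgf4 and raised Idgf6 further, while Idgf2 and Idgf3 did not pass the test. The level of bon was also 0.836 times that in Bon eyes, and its part in these changes cannot be told apart from that of yki. Idgf4 had 26.7, 23.8 and 23.4 CPM in the Bon+yki-RNAi libraries, all above the Bon libraries and all far under the controls. Its mean rose from 12.6 to 24.6 ± 1.79 CPM (1.96-fold, log2 fold change 0.97 ± 0.06, adjusted p = 1.73e-08). Idgf6 had 46.2, 49.4 and 48.2 CPM, again above every Bon library, with a 1.56-fold rise to 47.9 ± 1.62 CPM (0.64 ± 0.07, adjusted p = 3.58e-05). Idgf2 had 14.3, 14.9 and 15.5 CPM, within the range of the Bon libraries but for the first. Its log2 fold change was -0.04 ± 0.06 (adjusted p = 0.663), with a 95% interval of -0.16 to 0.08. Idgf3 had 12.4, 13.3 and 13.5 CPM, overlapping with Bon, and -0.02 ± 0.06 (adjusted p = 0.813), with an interval of -0.14 to 0.10. In this comparison 11.3% of tested genes were called higher, 16.3% lower and 27.6% in either direction, and for 44.4% the libraries of the groups did not overlap. A call with a log2 fold change of 1 or more was made for 1.12% of genes and of -1 or less for 1.72%, and no member was among them. Of the eye markers 7 rose and 4 fell (median 0.19), and their part in the rise of Idgf4 was not tested. The calls over all genes were 1251 higher and 1803 lower, and 1610 and 1468 with upper-quartile scaling.

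Set against control eyes, Bon+yki-RNAi eyes had 3.65-fold less Idgf4 and 4.08-fold more Idgf6. The log2 fold change of Idgf4 was -1.87 ± 0.05 (adjusted p = 3.35e-13) and that of Idgf6 was 2.03 ± 0.08 (adjusted p = 9.42e-10), the 104th highest of 11068. Of the markers 11 of 14 eye genes (median -1.07) and 9 of 12 tested hemocyte genes (median -0.64) also fell, and their part was not tested. The 11 again include Crys, which passed the low-count filter only through mCherry. The 9 include eater, which could not pass it at its Bon+yki-RNAi level. Idgf2 and Idgf3 were called higher by 0.81 ± 0.06 (adjusted p = 5.05e-08) and 0.52 ± 0.06 (adjusted p = 3.92e-06). Here 54.5% of all genes were called, 25.1% higher and 29.4% lower (2773 and 3259 genes, and 4252 and 2412 with upper-quartile scaling), and the libraries of 61.8% did not overlap. A log2 fold change of -1 or less was called for 5.63% and of 1 or more for 3.08%, which included Idgf4 and Idgf6. The order over groups was thus mCherry, Bon+yki-RNAi, Bon from high to low for Idgf4, with each step past the test, and Bon+yki-RNAi, Bon, mCherry for Idgf6, likewise. For Idgf2 and Idgf3 the Bon groups stood above mCherry, and the order between the Bon groups was not resolved. Each pair of these 3 comparisons shares 1 group of libraries, so the comparisons are not independent of each other.

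The authors' deposited table for Bon lists log2 fold changes of -2.84 for Idgf4, 1.39 for Idgf6, 0.86 for Idgf2 and 0.54 for Idgf3. For yki knockdown the authors' deposited table gives 0.99, 0.66, -0.03 and -0.01 in the same order.

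**Figure D2:**
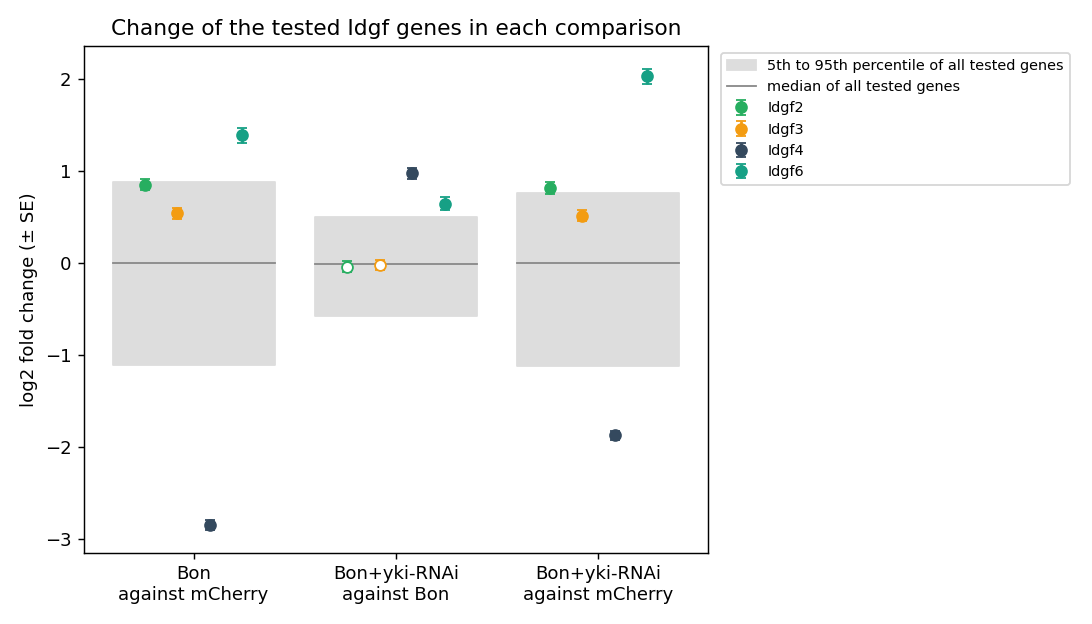
Log2 fold change with its standard error for the 4 tested Idgf genes in each comparison. Filled points passed an adjusted p of 0.05 and open points did not. The grey band spans the 5th to 95th percentile of all 11068 tested genes, from -1.11 to 0.88 with Bon and from -0.58 to 0.50 with yki knockdown. Idgf4 and Idgf6 lay outside the band in all 3 comparisons, and Idgf3 lay inside it in each.

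Members of the family that were barely detected are described by their counts alone. Idgf1 had 2, 5 and 3 counts in mCherry, 5, 3 and 1.5 in Bon and 7, 2 and 8.5 in Bon+yki-RNAi. Per kilobase this was 0.0570 CPM in mCherry, where Idgf2, the next gene along the strand, had 4.72 CPM. The summed rounded counts were 10, 10 and 17, with exact Poisson 95% intervals of 4.79 to 18.4 for mCherry and for Bon and 9.90 to 27.2 for Bon+yki-RNAi, which cover counting error only. Fitted without the low-count filter, Idgf1 had adjusted p-values of 0.92, 0.396 and 0.398 in the 3 comparisons, so no difference was detectable at this depth. Idgf5 had 1, 1.5 and 0 counts in mCherry, 0.5, 0.5 and 0 in Bon, and 0, 0 and 0.5 in Bon+yki-RNAi. All its values lie under 3 counts, a level of 0.0618 to 0.0859 CPM in these libraries before scaling, and no fold is given.

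The make-up of the family changed with the fall of Idgf4. Summed per kilobase, the 6 genes reached 61.0, 64.6 and 62.2 CPM in mCherry, 34.9, 37.0 and 35.3 CPM in Bon and 51.3, 52.0 and 51.5 CPM in Bon+yki-RNAi. The Bon total was 57.1% and the Bon+yki-RNAi total 82.4% of the control total, and the libraries of the 3 groups did not overlap. Without Idgf4 the sum instead went up, from 13.6 ± 0.776 to 28.9 ± 1.48 and 38.2 ± 1.26 CPM per kilobase. Idgf4 held 19.2% ± 1.63 of the family in Bon and 26.01% ± 2.03 in Bon+yki-RNAi, and Idgf6 held 47.3% ± 3.65 and 51.3% ± 1.39. The share of Idgf2 was 7.54% ± 0.109 in mCherry, 23.9% ± 1.601 in Bon and 16.1% ± 0.619 in Bon+yki-RNAi, and that of Idgf3 was 3.69% ± 0.166, 9.41% ± 0.753 and 6.40% ± 0.264. The level of Idgf4 was thus 7.63 ± 0.563 times that of Idgf6 per kilobase in control eyes, 0.409 ± 0.0644 times in Bon and 0.508 ± 0.0535 times in Bon+yki-RNAi. In Bon the order of levels per kilobase was Idgf6, Idgf2, Idgf4, Idgf3, and in Bon+yki-RNAi it was Idgf6, Idgf4, Idgf2, Idgf3, with no overlap of libraries between neighbours in either order. The end of the Bon order rests on the division by length, since by plain CPM the share of Idgf3 was 18.5% and that of Idgf4 17.5%. The place of Idgf2 above Idgf3 in mCherry rests on it too, since by plain CPM their shares there were 7.10% and 7.66%. These shares and ratios are descriptions without a test.

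**Figure D3:**
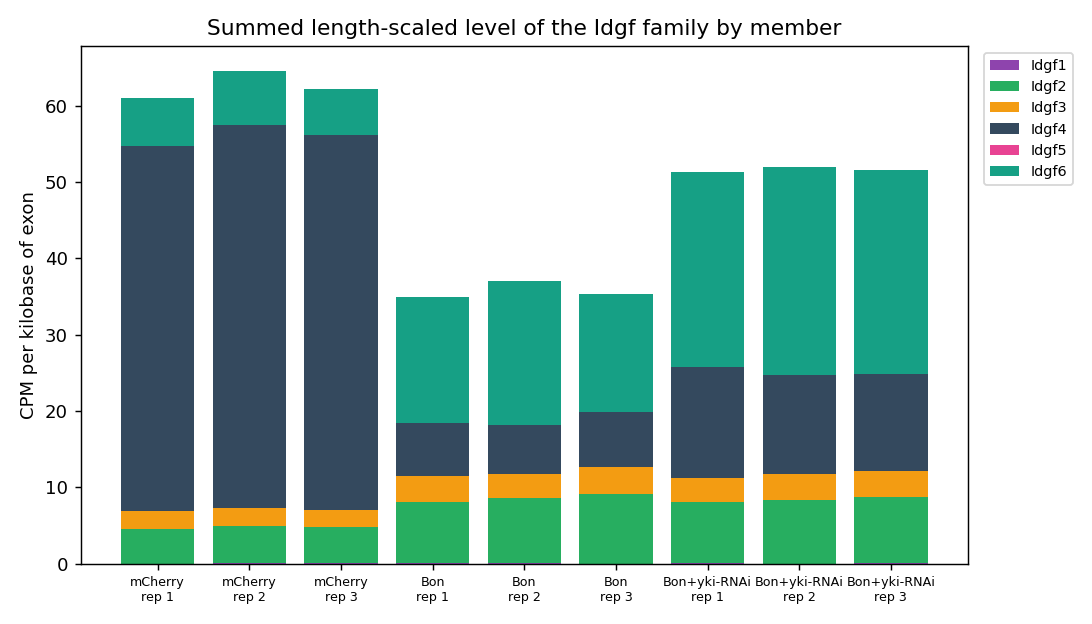
Level of the 6 Idgf genes in each library, in CPM per kilobase of exon, stacked by gene from 0. Idgf4 fills most of each mCherry bar and Idgf6 the largest part of each Bon and Bon+yki-RNAi bar. Bon bars reach 34.9 to 37.0 and mCherry bars 61.0 to 64.6, and Idgf1 and Idgf5 are too low to be seen.

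Genes that overlap or flank the members were looked at because strandedness of the counting is not given in the sources used here. Idgf6 lies inside an intron of Pgant9, a glycosyltransferase gene on the opposite strand, with no shared exon. Pgant9 stood at 440 ± 5.43, 497 ± 23.6 and 378 ± 1.37 CPM in mCherry, Bon and Bon+yki-RNAi. It rose with Bon by 0.17 ± 0.03 and fell with yki knockdown (-0.39 ± 0.03, adjusted p = 4.17e-07), while Idgf6 rose in both. Idgf1 lies in an intron of CG5888, also on the opposite strand, whose first exon falls within an intron of Idgf2. CG5888 had 63.4 ± 1.06, 62.8 ± 2.91 and 69.3 ± 3.39 CPM, with -0.01 ± 0.04 with Bon (adjusted p = 0.799) and a rise of 0.14 ± 0.04 with yki knockdown (adjusted p = 0.0172). The next tested gene beyond Idgf3 was dac, which encodes a nuclear factor of retinal determination and lies 11317 nt away on the other strand. It had 0.08 ± 0.07 with Bon (adjusted p = 0.368). To the left of the cluster CaBP1, at 90594 nt from Idgf2, fell by 0.43 ± 0.03 on the log2 scale with Bon (adjusted p = 2.66e-09). Around Idgf4 the nearest tested genes were 28387 and 32504 nt away and low, CG15249 at 0.286 ± 0.0683 and CG1791 at 1.38 ± 0.256 CPM in mCherry. CG1791, which passed the low-count filter only through mCherry, fell with Bon (-3.12 ± 0.30, adjusted p = 6.48e-07), and CG15249 had 0.61 ± 0.31 (adjusted p = 0.116). An intron of Idgf4 also holds a small nucleolar RNA gene, snoRNA:Me28S-U1688, at 0.114 ± 0.0601 CPM in mCherry. Beside Idgf6, CG34457 at 19185 nt was at 0.468 ± 0.258 CPM in mCherry with no call in any comparison. On the far side unc-104, a kinesin gene at 57751 nt, rose by 0.14 ± 0.04 with Bon (adjusted p = 0.00456).

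Of the chitinases that share the GH18 fold with the Idgf proteins, 10 of 12 listed genes had counts to look up and 7 were tested. With Bon 1 rose and 4 fell, where 25.2% of all tested genes were called higher and 27.2% lower. The median log2 fold change was -0.40, beside 0.00 for all tested genes. Cht5, a moulting chitinase gene with the highest level per kilobase of them in mCherry (3842 CPM), went from 8152 ± 314 to 1813 ± 93.1 CPM (-2.17 ± 0.04, adjusted p = 7.19e-15). Cht2 fell as well (-0.40 ± 0.03, adjusted p = 4.49e-08), as did Cht6 and Cht7, which are named after their values were seen. Cht10 rose from 230.5 ± 8.65 to 1222 ± 115 CPM (2.41 ± 0.06, adjusted p = 2.43e-10). With yki knockdown 2 rose and 2 fell (median -0.01), where 11.3% of all tested genes were called higher and 16.3% lower. Cht5 rose by 0.73 ± 0.04 (adjusted p = 4.93e-09) to 3008 ± 16.8 CPM, Cht10 fell (-0.79 ± 0.06, adjusted p = 5.7e-06) and Cht2 fell (-0.15 ± 0.03, adjusted p = 0.00228). Against control, Bon+yki-RNAi eyes had 1 chitinase gene higher, Cht10 (1.62 ± 0.06), and 4 lower, among them Cht5 (-1.44 ± 0.04). Over all tested genes 25.1% were called higher and 29.4% lower in that comparison. Idgf4, Cht5 and Cht6 were called in the same direction in each comparison. The eye markers eya, ninaC, sv, w, cn and v had these same calls, and the other eye markers did not. Genes listed for other reasons had them too, among them ImpL2 (insulin pathway), SPARC (hemocyte list), loco (glial list) and sls (muscle list). The share of all tested genes with these calls was not counted. Idgf6 and Cht10 were both called higher with Bon and against control, and in opposite directions with yki knockdown. These genes were set side by side after their values were seen.

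**Figure D4:**
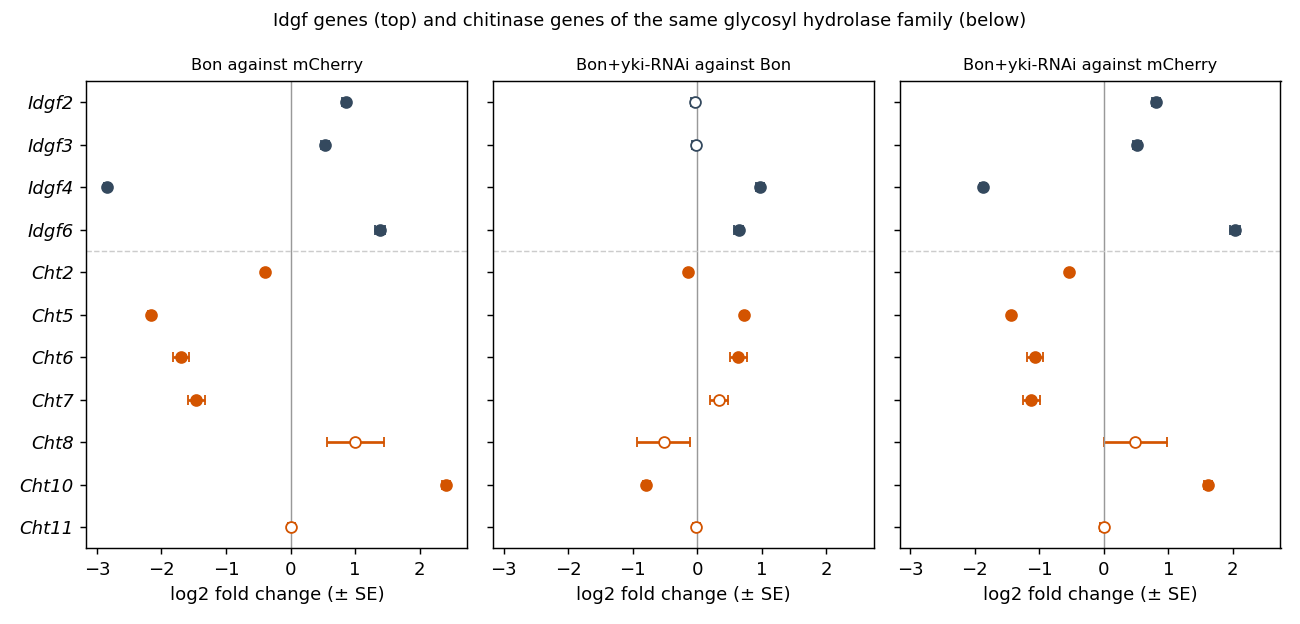
Log2 fold change with standard error of the 4 tested Idgf genes (upper rows) and the 7 tested chitinase genes (lower rows) in each comparison, on 1 common axis. Filled points passed an adjusted p of 0.05. Of the genes that passed with Bon and with yki knockdown, Idgf4, Cht5 and Cht6 lie left of 0 with Bon and right of 0 with yki knockdown. Cht10 does the reverse.

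Among 15 genes of chitin synthesis and matrix organisation, 13 were tested. With Bon 4 rose and 5 fell (median -0.06), where 25.2% of all tested genes were called higher and 27.2% lower. Cda4, a chitin deacetylase gene, had -1.04 ± 0.06 (adjusted p = 7.07e-08), and obst-E and obst-A, which encode chitin-binding proteins, rose by 1.25 ± 0.10 (adjusted p = 2.47e-07) and 0.31 ± 0.03 (adjusted p = 6.1e-07). With yki knockdown 0 rose and 7 fell (median -0.30, beside -0.01 for all tested genes). Of all tested genes 11.3% were called higher and 16.3% lower with yki knockdown. At an unadjusted p under 0.05 of edgeR 0 genes of this list were higher and 9 lower, and DESeq2 called 0 higher and 7 lower. The listed genes that fell included obst-A (-0.40 ± 0.03), obst-E (-1.45 ± 0.10) and obst-B (-0.51 ± 0.06). Against control 1 rose and 7 fell in Bon+yki-RNAi (median -0.32), among them Cda4 (-1.23 ± 0.06), the chitin synthase gene kkv (-2.62 ± 0.11) and rtv (-0.52 ± 0.05). Over all tested genes 25.1% were called higher and 29.4% lower against control.

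Of 27 listed symbols of the insulin pathway, with which Idgf proteins cooperate in cell culture, 25 were found by name and 23 were tested. With Bon 6 rose and 4 fell (median 0.03), where 25.2% of all tested genes were called higher and 27.2% lower. The 6 include Ilp4, at 0.226 CPM in mCherry and 0.432 CPM in Bon. At its mCherry level Ilp4 could not pass the low-count filter, so its rise is not independent of that filter. ImpL2, whose product binds insulin-like peptides and restrains them, fell from 280 ± 0.969 to 65.3 ± 2.83 CPM (-2.10 ± 0.03, adjusted p = 2.11e-15). Sdr, a secreted decoy of the insulin receptor, rose from 11.8 ± 0.666 to 27.3 ± 1.67 CPM (1.21 ± 0.06, adjusted p = 1.85e-10), and the ligand gene Ilp6 had -0.43 ± 0.05 (adjusted p = 6.73e-06). With yki knockdown 3 rose and 5 fell (median 0.00), where 11.3% of all tested genes were called higher and 16.3% lower. ImpL2 rose by 0.56 ± 0.03 (adjusted p = 2.56e-08), Ilp1 rose by 0.88 ± 0.11 (adjusted p = 2.72e-05), and the receptor gene InR had -0.17 ± 0.03 (adjusted p = 0.000562). Against control 5 rose and 4 fell, with ImpL2 at -1.55 ± 0.03, Sdr at 0.92 ± 0.06 and Ilp1 at 0.74 ± 0.11. The 5 again include Ilp4, with the same limit of the filter. Over all tested genes 25.1% were called higher and 29.4% lower against control.

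The genes whose log2 CPM followed each member most closely over the 9 libraries were taken from 7907 other genes with a mean of at least 5 CPM. For Idgf4 they were Tdrd3 (Pearson r = 0.9981), CG11997 (0.9978) and Cyp6d4 (0.9973), which had log2 fold changes of -1.16, -3.88 and -0.72 with Bon. For Idgf6 they were Actbeta, an activin ligand gene (0.9979), the Toll family receptor gene 18w (0.9978) and CG5664 (0.9921), with changes of 0.27, 0.33 and 0.23. For Idgf2 they were CG5758 (0.9898), the cyclin gene CycA (0.9894) and CG11601 (0.9894). For Idgf3 they were AIF (0.9887), Bbd (0.9882) and mRpL4 (0.9876). Between the neighbours Idgf2 and Idgf3 the correlation was 0.981. These values describe 9 libraries in 3 groups that share the group differences, and no test was made of them.

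Markers of other cell types that the dissected tissue could hold were measured beside the family. Over all tested genes 25.2% were called higher and 27.2% lower with Bon, and 11.3% and 16.3% with yki knockdown. In Bon+yki-RNAi against mCherry these shares were 25.1% and 29.4%. Of 13 hemocyte markers 12 were tested, of which 0 rose and 4 fell with Bon (0 and 5 at an unadjusted p under 0.05 of edgeR, 0 and 4 by DESeq2), and 1 rose and 4 fell with yki knockdown. Against mCherry, 9 fell in Bon+yki-RNAi and 0 rose (0 and 9 at an unadjusted p under 0.05, 0 and 8 by DESeq2). Their summed level was 1922 to 2000 CPM in mCherry, 1695 to 1766 CPM in Bon and 1631 to 1707 CPM in Bon+yki-RNAi. That sum came mostly from the matrix genes Ppn, Col4a1 and vkg (672, 593.6 and 290.9 CPM in mCherry). In mCherry Pxn, SPARC and crq stood at 162.4, 129.3 and 93.7 CPM. There srp, NimC2, Sr-CI, Hml, NimC1 and eater had 4.24, 4.12, 1.77, 1.43, 1.18 and 0.289 CPM, and He had no count. At its Bon+yki-RNAi level of 0.099 CPM eater could not pass the low-count filter, so its falls in that group are not independent of the filter. Of 13 fat body markers 12 were found by name and 11 were tested. Of the 11, 2 rose and 1 fell with Bon, and 1 rose and 2 fell with yki knockdown. In Bon+yki-RNAi against mCherry 2 rose. Their sum was 2758 to 3245, 5940 to 6112 and 3843 to 4129 CPM in the same order of groups, nearly all of it from the transferrin gene Tsf1 (2928 ± 262, 5905 ± 93.0 and 3876 ± 158 CPM). The yolk protein gene Yp3 rose most with Bon (7.78 ± 0.923, 66.8 ± 6.56 and 36.9 ± 2.11 CPM; log2 fold change 3.12 ± 0.10, adjusted p = 1.09e-09). The lipid transfer gene Apoltp had 29.5 ± 4.00, 37.6 ± 10.2 and 44.8 ± 7.72 CPM with no call in any comparison. The storage protein gene Lsp1gamma fell with Bon and rose with yki knockdown (1.56, 0.638 and 1.13 CPM). The fat body genes Lsp2 and Fbp1 stood at 3.71 to 4.37 CPM in Bon and 4.21 to 4.68 CPM in mCherry. Summed glial markers were 1316 to 1330, 1042 to 1096 and 1103 to 1159 CPM, with 3 lower of 7 tested with Bon, and 4 higher and 1 lower with yki knockdown. In Bon+yki-RNAi against mCherry 2 glial markers were higher and 3 lower. Summed muscle markers were 1548 to 1670, 1099 to 1193 and 1130 to 1164 CPM, with 1 of 8, sls, lower with Bon. That sum came mostly from sls and Tm1 (1031 and 588.5 CPM in mCherry), and every other muscle marker was at 1.84 CPM or less in mCherry. With yki knockdown sls was called higher and Tm1 lower, and both were called lower in Bon+yki-RNAi against mCherry. Summed tracheal markers were 36.4 to 38.0, 44.6 to 48.8 and 36.5 to 39.8 CPM, with 3 of 4 higher and 1 lower with Bon and 1 lower with yki knockdown. That sum came mostly from bnl and Mipp1 (20.9 and 13.5 CPM in mCherry). The gene that was lower with Bon was trh, which went from 2.175 to 0.704 CPM (adjusted p = 0.000263). In Bon+yki-RNAi against mCherry 1 tracheal marker was higher and 1 lower. The part of any of these cell types in the Idgf values was not tested.

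The precision of the member values can be read from their counts. Idgf4 in control libraries rested on 3043 to 4294 counts and varied by 2.39% between libraries, where counting alone gives 1.67%. In Bon and Bon+yki-RNAi it varied by 5.84 and 7.29%, beside 4.24 and 3.18%. Idgf6 varied by 9.09, 10.4 and 3.37% in mCherry, Bon and Bon+yki-RNAi, where counting alone gives 4.62, 2.703 and 2.28%. Idgf2 varied by 4.35, 6.22 and 4.04% beside counting errors of 5.44, 3.83 and 4.09%. Idgf3 varied by 2.001, 5.34 and 4.59% beside 5.25, 4.12 and 4.37%.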

How the data were processed

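The authors deposited 1 table per library of estimated counts per gene, with decimals in 39.7 to 42.8% of values. Build BDGP6 and DESeq2 1.30.1 are named in the submitters' processing notes, as are Subread 1.6.2 with featureCounts, STAR 2.7.0e, cutadapt 2.9 and Bowtie2 2.3.5.1. Their options, the strandedness and the handling of shared reads were not given in the sources used here. Of the 54 member values 17 end in a 0.5, so reads shared with other features may be split. The authors' deposited comparison tables hold, per the file headers, p-values, log2 and plain fold changes (a ratio), and for each library a signal scaled by size factors. Their scaled values are a constant multiple, within a relative tolerance of 0.0001, of the counts rounded down in 100% of genes.

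Here counts were rounded to the nearest whole number. Genes were kept by filterByExpr (minimum count 10) of edgeR 4.0.16 in R 4.3.3, leaving 11068, and scaled by TMM (factors 0.961 to 1.04). The quasi-likelihood test (robust, group only, all 9 libraries) was two-sided, with Benjamini-Hochberg adjustment over all tested genes and a threshold of 0.05. All adjusted p-values are from it unless another test is named. SE is the log2 fold change over the square root of F, and 95% intervals use its t distribution. The code was tested on simulated data. No 2 libraries of a group matched within counting noise (chi-square of 2.53 to 10.5 per gene). The labels do not say that replicates were separate crosses, while the series design calls them biological.

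Symbols came from an identifier table that held 17252 of the 17558 genes. Members, lists and the naming rule (members, bon, yki, overlapping genes and nearest tested neighbours, the 3 genes most alike, the 3 smallest p per list) were chosen with earlier results of these data known. List medians are given without a list test. Alternatives were other scalings, no filter, DESeq2 1.42.0, fits on 6 libraries, a replicate block, a non-robust fit, counts rounded down and each library left out.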

Additional observations from a re-analysis of the deposited data

How the results depend on the processing

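All 4 tested members kept their call and direction, or their lack of a call, in the 3 comparisons under each of the 14 alternatives per comparison (168 member values in all). Over these the log2 fold change of Idgf4 ranged from -2.87 to -2.78 with Bon and from 0.91 to 1.012 with yki knockdown, and that of Idgf6 from 1.31 to 1.48 and from 0.58 to 0.73. For Idgf2 and Idgf3 with yki knockdown the adjusted p was never under 0.371. With 1 library left out, the ranges were -2.87 to -2.79 and 0.91 to 1.012 for Idgf4. The count of genes called higher in Bon+yki-RNAi against mCherry moved from 2773 to 4252 with upper-quartile scaling, the only one of 84 such counts to move by over 1.5 times. That scaling shifted the median log2 fold change by 0.07, 0.02 and 0.09 in the 3 comparisons, and the share of higher among all calls from 48.1 to 62.6%, from 41.0 to 52.3% and from 46.0 to 63.8%.

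Replicate numbers are only names in the labels. Same-numbered libraries had correlations of -0.01 to 0.18 in their deviations from group means, 2 of 9 over 0.1. In 13 of 18 comparisons of a library with another group, each a choice among 3 libraries, its own number was the best match. Whether the numbers mark a shared batch is not stated in the labels, and the main fit has no term for them. The replicate block changed no call of a member (Idgf4 -2.84 with Bon and 0.97 with yki knockdown, Idgf6 1.39 and 0.65). It gave 2895 higher and 3091 lower calls with Bon, 1534 and 1914 with yki knockdown and 2942 and 3324 in Bon+yki-RNAi against mCherry.

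Dividing by exonic length matters most for Idgf3, whose share of the family in mCherry was 3.69% per kilobase and 7.66% of plain CPM. Idgf1 and Idgf5 are limited by depth, and differences in them were not detectable.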

Other observations

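The adenosine deaminase-related growth factors (Adgf) are another family of secreted growth factors and are unrelated to Idgf by sequence. Of the 6 genes 5 were tested, and all were low in these eyes, at 3.59 CPM or less in mCherry. With Bon 2 rose and 1 fell, while DESeq2 called 1 higher and 1 lower. Over all tested genes the edgeR test called 25.2% higher and 27.2% lower with Bon. Adgf-D fell from 3.59 ± 0.413 to 2.21 ± 0.138 CPM (SD, n = 3; log2 fold change -0.69 ± 0.14, edgeR adjusted p = 0.000704). Adgf-A2 rose from 0.160 ± 0.0626 to 0.423 ± 0.0559 CPM (adjusted p = 0.00196) and Adgf-B from 0.102 ± 0.0917 to 0.271 ± 0.103 CPM (adjusted p = 0.0424). In mCherry, Adgf-B was close to what 3 counts amount to. At their mCherry levels neither Adgf-A2 nor Adgf-B could pass the low-count filter, so they were tested only because of the groups with Bon. Their rises over mCherry are thus not independent of that filter. With yki knockdown 0 were called in the edgeR test, 0 had an unadjusted p under 0.05 and DESeq2 called 0. The edgeR test called 27.6% of all tested genes in either direction there. Against control, Bon+yki-RNAi eyes had Adgf-B higher (1.96 ± 0.52, adjusted p = 0.00548) and Adgf-D lower (-0.76 ± 0.14, adjusted p = 0.000362). Of all tested genes 25.1% were called higher and 29.4% lower against control.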
